A study of Mus musculus with 15 samples.

Results

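The axon guidance genes of hippocampal interneurons were taken as every row of the gene table whose symbol names a semaphorin of classes 3 to 7, a plexin, a neuropilin, an Eph receptor, an ephrin, a Slit, a Robo receptor, a netrin, an Unc5 receptor or Dcc. Of the 72 rows that matched, 14 were at 0 in all 15 cells, which left 58 members out of 18113 genes above 0 in at least 1 cell. The 58 comprised 16 semaphorins, 11 plexins and neuropilins, 11 Eph receptors, 6 ephrins, 2 Slits, 2 Robo receptors, 3 netrins, 5 netrin receptors (Dcc and Unc5a to Unc5d) and 2 antisense transcripts of Plxna4, Plxna4os1 and Plxna4os3, which carry the symbol of a plexin but encode no protein. The 14 genes listed at 0 in every cell were Efna1, Efna4, Epha1, Epha8, Ephb4, Ntn5, Plxna4os2, Robo3, Robo4, Sema3b, Sema3d, Sema3f, Sema3g and Slit1.

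The cells were single CA1 interneurons of organotypic hippocampal slice cultures made from mouse pups 6 to 7 days old, with the cytosol of each neuron aspirated through a patch pipette and sequenced as 1 library. VGT3+ neurons came from VGT3-Cre mice, Pv+ neurons from Pv-Cre mice and Sst+ neurons from Sst-Cre mice, each crossed to a TdTomato reporter and of either sex, and 5 cells of each type were sequenced. A cell was chosen by its red fluorescence, so it carried the Cre history of its line. VGT3 (Slc17a8), parvalbumin and somatostatin are, respectively, a vesicular glutamate transporter of Cck-class basket cells, a calcium-binding protein of fast-spiking interneurons and a neuropeptide of dendrite-targeting interneurons. Slc17a8 stood at 106 to 354 TPM (a length-corrected share of the reads, with each cell adding up to 1000000) in VGT3+ cells, Pvalb at 3136 to 7383 TPM in Pv+ cells and Sst at 1804 to 4539 TPM in Sst+ cells, and none of these genes passed 55.1 TPM in a cell of another type. Because each type came from its own line and no animal or culture is named for a cell, interneuron type, mouse line, animal and culture cannot be told apart here, and each type counted as 1 sample. SDs below give the spread over the 5 cells of a type, and no p-value was computed. The labels carry the code G556 for VGT3+ cells 1 to 3 and G709 for VGT3+ cells 4 and 5 and all Pv+ and Sst+ cells. These codes were taken as library batches, which the labels do not state.

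Guidance cues steer growing axons and, later, the contacts they form. Semaphorins act through plexins, and most class 3 semaphorins need a neuropilin as the ligand-binding subunit. Ephrins and Eph receptors signal between touching cells in both directions, Slits repel axons that carry Robo receptors, and netrins attract through Dcc and repel through Unc5 receptors. Cortical and hippocampal interneurons meet several of these cues while they migrate out of the ganglionic eminences and choose their target layer or cell compartment.

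The libraries had an estimated depth of 13.2 to 32.2 M reads on genes (median 16.9 M, with M for 1000000) and 5463 to 11156 genes above 0 per cell. A level of 3 reads corresponded to 0.00958 to 1.28 TPM over the 57 members with a known exon length, so a member listed at 0 may have been present below that level. VGT3+ cells 3 and 4 had the fewest genes, 5463 and 6005. Markers of other cells were present in the libraries. The summed level of 10 microglia markers was 133 to 24319 TPM per VGT3+ cell, 4048 to 15781 TPM per Pv+ cell and 0.433 to 5155 TPM per Sst+ cell, and that of 8 astrocyte markers was 230 to 3557, 199 to 503 and 198 to 2247 TPM. The 10 oligodendrocyte lineage markers summed to 5.88 to 611, 33.2 to 425 and 59.1 to 1299 TPM in the same order, 6 endothelial and mural markers to at most 22.3 TPM, and 7 pyramidal neuron markers to at most 115 TPM. Of the astrocyte sum, Aldoc alone was 155 to 3021 TPM in VGT3+ cells, 111 to 450 TPM in Pv+ cells and 178 to 1104 TPM in Sst+ cells. Of the 8 astrocyte markers, 4 were at least 2-fold higher in Sst+ than in VGT3+ cells (all genes 17.6%) and 1 was lower (16.4%). In Sst+ against Pv+ cells, 5 were higher and 1 lower (16.6% each way). Of the 10 microglia markers, 7 were higher and 0 lower in VGT3+ than in Sst+ cells (16.4% and 17.6%). In Pv+ against Sst+ cells, 9 of the 10 were higher and 1 lower (16.6% each way). In VGT3+ against Pv+ cells, 3 were higher and 2 lower (16.2% and 17.4%). By cell, the astrocyte sum was highest in VGT3+ cell 3 (3557 TPM) and in Sst+ cells 1 and 5 (2247 and 1705 TPM). The microglia sum was highest in VGT3+ cells 1 and 4 (24319 and 20567 TPM) and in Pv+ cell 3 (15781 TPM). Guidance genes are expressed by the cells of these marker lists too, and the part of their RNA in the values below was not tested.

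Detection of the guidance genes was patchy from cell to cell. Whether a 0 marks absent RNA or RNA that was not captured was not tested. None of the 58 was above 0 in all 15 cells, and the most widely detected were Epha5 and Plxna4, each in 14. In all, 14 members were above 0 in at least 10 cells and 7 in a single cell. A cell held 21.4 ± 7.89 members above 0 among VGT3+ cells, 28.2 ± 6.83 among Pv+ cells and 26.2 ± 3.42 among Sst+ cells (SD, n = 5 cells each). At a limit of 1 TPM these means were 16.8, 20.6 and 20.8. All genes above 0 followed the same order as the members above 0, with means of 7869, 9715 and 8206 per cell. At 1 TPM or more, members made up 0.254, 0.273 and 0.328% of the genes of a cell, in the same order of types. The ranges of the 3 types overlapped. By summed level the order differed: the members added up to 581 ± 209 TPM per VGT3+ cell, 242 ± 73.7 TPM per Pv+ cell and 496 ± 158 TPM per Sst+ cell, with 217 to 751, 157 to 337 and 325 to 721 TPM in single cells. Detection by type left 15 members at 0 in all VGT3+ cells, 12 in all Pv+ cells and 10 in all Sst+ cells. No share of all genes is given beside these counts, so nothing is read from them. Sema4g, Plxna2 and Plxna4 were above 0 in all 5 VGT3+ cells. Sema6a, Sema7a, Nrp1, Plxna4, Epha5, Efnb2, Robo1, Robo2 and Unc5d were so in all 5 Pv+ cells, and Epha5, Epha7, Robo1, Robo2 and Unc5c in all 5 Sst+ cells.

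**Figure D1:**
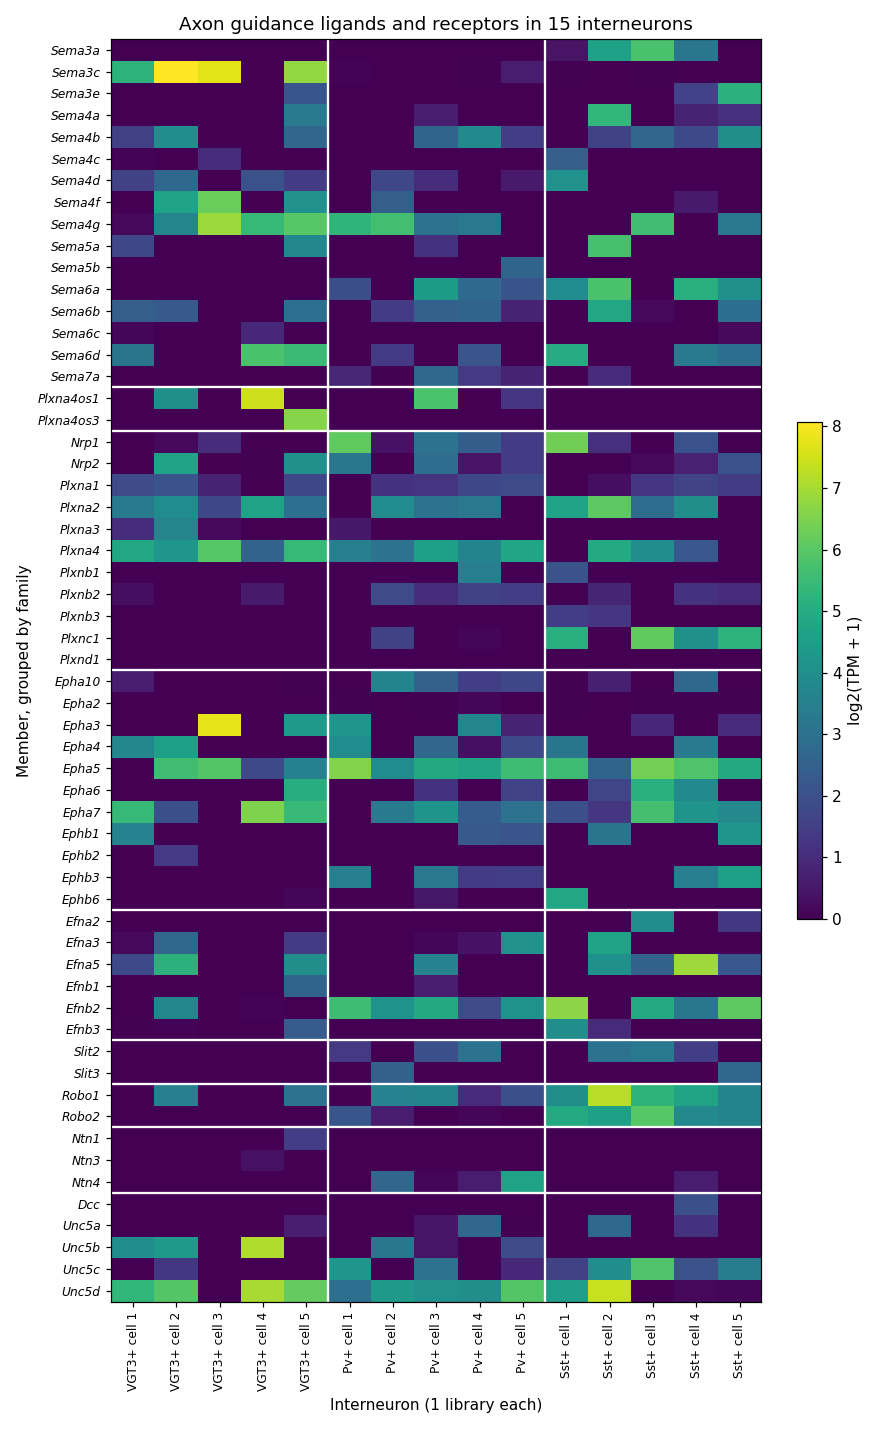
Level of each of the 58 members (rows, grouped by family) in each of the 15 interneurons (columns), as log2(TPM + 1) by colour, with white lines between types and families. Sema3c is bright in 4 of 5 VGT3+ cells and Robo1 and Robo2 in all 5 Sst+ cells, while most other rows are filled in some cells of a type and empty in others.

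The Robo receptors, which bind Slits, separated Sst+ cells from the others. Robo2 was at 29.8, 23.1, 61.4, 13.1 and 11.3 TPM in Sst+ cells 1 to 5, at 3.44, 0.523, 0.00822, 0.108 and 0.0158 TPM in Pv+ cells 1 to 5, and listed at 0 in all 5 VGT3+ cells. Every Sst+ cell was above every cell of the other types, and the lowest Pv+ value was worth about 1.03 reads. Robo1 was at 14.9, 148, 37.0, 25.4 and 11.3 TPM in Sst+ cells 1 to 5, at 0.0204, 11.0, 11.4, 0.973 and 2.91 TPM in Pv+ cells, and at 0.0138, 10.4, 0, 0 and 7.24 TPM in VGT3+ cells. All Sst+ cells lay above the VGT3+ cells, but the lowest Sst+ cell, at 11.3 TPM, fell just below the highest Pv+ cell, at 11.4 TPM. On the log2(TPM + 1) scale, which shrinks differences between low values, Robo2 differed by -4.0 for Pv+ minus Sst+, and Robo1 by -3.65 for VGT3+ minus Sst+ and -2.92 for Pv+ minus Sst+. Together, the 2 receptors summed to 22.6 to 171 TPM in Sst+ cells, while no other cell passed 11.6 TPM. Leaving out any single cell kept the Robo1 difference for Pv+ minus Sst+ between -3.32 and -2.35 and that of Robo2 between -4.39 and -3.65.

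Robo1 (chr16:72308306-73046095, plus strand, GRCm38, GENCODE M21) and Robo2 (chr16:73891839-74411825, minus strand) are neighbours on chromosome 16 with 0 protein-coding genes between them in RefSeq. Because both had a higher mean in Sst+ cells, as did the plexin Plxnc1 described below, the 250 bases before a start site of each are shown, from RefSeq on GRCm38.p6, 5′ to 3′ on the strand of the gene, with GC boxes (GGGCGG, on either strand) in capitals. For Robo2, the 1 of 3 listed starts that coincides with a GENCODE M21 transcript start is given. The Robo1 window precedes the only listed start, which also coincides with a GENCODE M21 transcript start. That start lies inside the Robo1 span given above, not at its 5′ end.
Robo1, chr16:72662899-72663148: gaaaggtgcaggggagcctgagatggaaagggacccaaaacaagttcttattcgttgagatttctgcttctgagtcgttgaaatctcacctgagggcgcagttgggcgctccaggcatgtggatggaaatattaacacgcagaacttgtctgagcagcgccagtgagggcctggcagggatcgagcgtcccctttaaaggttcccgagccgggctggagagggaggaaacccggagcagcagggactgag
Robo2, chr16:74411826-74412075: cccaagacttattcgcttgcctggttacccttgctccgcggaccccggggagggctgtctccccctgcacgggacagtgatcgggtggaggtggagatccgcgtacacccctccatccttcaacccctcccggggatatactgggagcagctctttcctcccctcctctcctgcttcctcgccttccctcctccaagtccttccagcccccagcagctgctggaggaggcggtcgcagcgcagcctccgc
Plxnc1, chr10:94944846-94945095: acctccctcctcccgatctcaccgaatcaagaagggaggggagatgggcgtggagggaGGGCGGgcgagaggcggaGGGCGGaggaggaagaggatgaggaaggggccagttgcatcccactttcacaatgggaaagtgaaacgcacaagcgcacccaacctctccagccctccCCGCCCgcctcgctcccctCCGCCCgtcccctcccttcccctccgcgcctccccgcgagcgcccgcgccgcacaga

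The Plxnc1 window held 4 GC boxes and 22 CpG dinucleotides, the Robo1 window 0 and 11, and the Robo2 window 0 and 14. Across 32851 RefSeq promoter windows of the same length, 32.7% held a GC box and the median number of CpG was 6. Percentiles 5 and 95 of the CpG number were 0 and 31, and the 3 windows lay between them. Searches of both strands for a TATA box (TATAAA, in 12.4% of all windows), a homeodomain core (TAATTA, 4.84%) and a nuclear receptor motif (AGGTCA, 14%) found no match in the 3 windows. The windows of the 2 Robo genes shared none of the 4 motifs searched. These matches describe letters only.

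Ligands for Robo were low. Slit2, a secreted repellent, was at 1.55, 0, 2.93, 7.00 and 0 TPM in Pv+ cells 1 to 5 and at 0, 7.32, 8.69, 1.82 and 0 TPM in Sst+ cells, and it was listed at 0 in all VGT3+ cells. Slit3 appeared in 1 Pv+ cell, at 4.61 TPM, and 1 Sst+ cell, at 5.42 TPM. No Slit gene was detected in a VGT3+ cell. At 1 TPM or more, Slit2 and Robo1 were found in the same cell in 3 Sst+ cells, 1 Pv+ cell and 0 VGT3+ cells. The Pv+ and Sst+ cells overlapped for both Slits.

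Semaphorins formed the largest family and, at 232 ± 151 TPM per VGT3+ cell against 39.4 ± 16.9 TPM per Pv+ cell and 103 ± 57.5 TPM per Sst+ cell, the one with the highest summed level in VGT3+ cells. Sema3c, a secreted class 3 semaphorin, made up 54.2% of the mean VGT3+ sum. VGT3+ cells 1 to 5 held it at 36.1, 269, 216, 0 and 108 TPM, and it was at 0.0649, 0, 0, 0.0312 and 0.548 TPM in Pv+ cells and at 0.0242, 0, 0.0241, 0 and 0 TPM in Sst+ cells. In 4 VGT3+ cells the gene stood far above all 10 other cells, and in VGT3+ cell 4 it was listed at 0, so the types overlapped. The difference in mean log2(TPM + 1) was 5.41 against Pv+ and 5.55 against Sst+ cells, the largest of the 58 members in both comparisons, and stayed between 4.78 and 6.94 when any single cell was left out. Cells of both batches were among the 4: cells 1 to 3 of G556 and cell 5 of G709.

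Sema4f and Sema4g, transmembrane semaphorins of class 4, also had their highest means in VGT3+ cells. VGT3+ cells 1 to 5 held Sema4g at 0.128, 11.9, 116, 41.2 and 62.5 TPM, and it was at 38.3, 49.1, 7.02, 8.38 and 0 TPM in Pv+ cells, and at 0, 0, 47.2, 0 and 8.15 TPM in Sst+ cells. The cells of the 3 types interleaved. Sema4f, chosen after its values were seen, was at 24.9, 74.7 and 16.1 TPM in VGT3+ cells 2, 3 and 5 and at 0 in VGT3+ cells 1 and 4, with a highest value of 4.49 TPM elsewhere. The transmembrane Sema6d was at 7.59, 0.00769, 0, 52.9 and 44.5 TPM in VGT3+ cells, at most 3.37 TPM in Pv+ cells and 30.1, 0, 0, 8.76 and 6.48 TPM in Sst+ cells. Its high cells occurred in VGT3+ and Sst+ samples alike, next to cells at 0 of the same type.

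A different pair of semaphorins was seen in Sst+ cells. Sema3a, the prototype secreted repellent that binds neuropilin 1, was at 0.347, 23.8, 53.1, 8.02 and 0 TPM in Sst+ cells 1 to 5, at no more than 0.0202 TPM in Pv+ cells and at 0 in all VGT3+ cells. The class 6 transmembrane semaphorin Sema6a was at 14.3, 53.2, 0, 32.8 and 15.7 TPM in Sst+ cells and at 2.85, 0.0156, 20.1, 5.79 and 3.3 TPM in Pv+ cells, and it was listed at 0 in all 5 VGT3+ cells. For Sema3a and Sema6a, 4 of 5 Sst+ cells were above every VGT3+ cell and 1 was at 0. Sema7a, a membrane-anchored semaphorin, was above 0 in all Pv+ cells at 0.0416 to 5.60 TPM, in Sst+ cell 2 at 0.948 TPM and in no VGT3+ cell. The lowest Pv+ values of Sema6a and Sema7a were each worth about 1 read. The remaining 9 semaphorins (Sema3e, Sema4a to Sema4d, Sema5a, Sema5b, Sema6b and Sema6c) ranged from 0 to 52.2 TPM, and each was at 0 in some cells of every type.

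**Figure D2:**
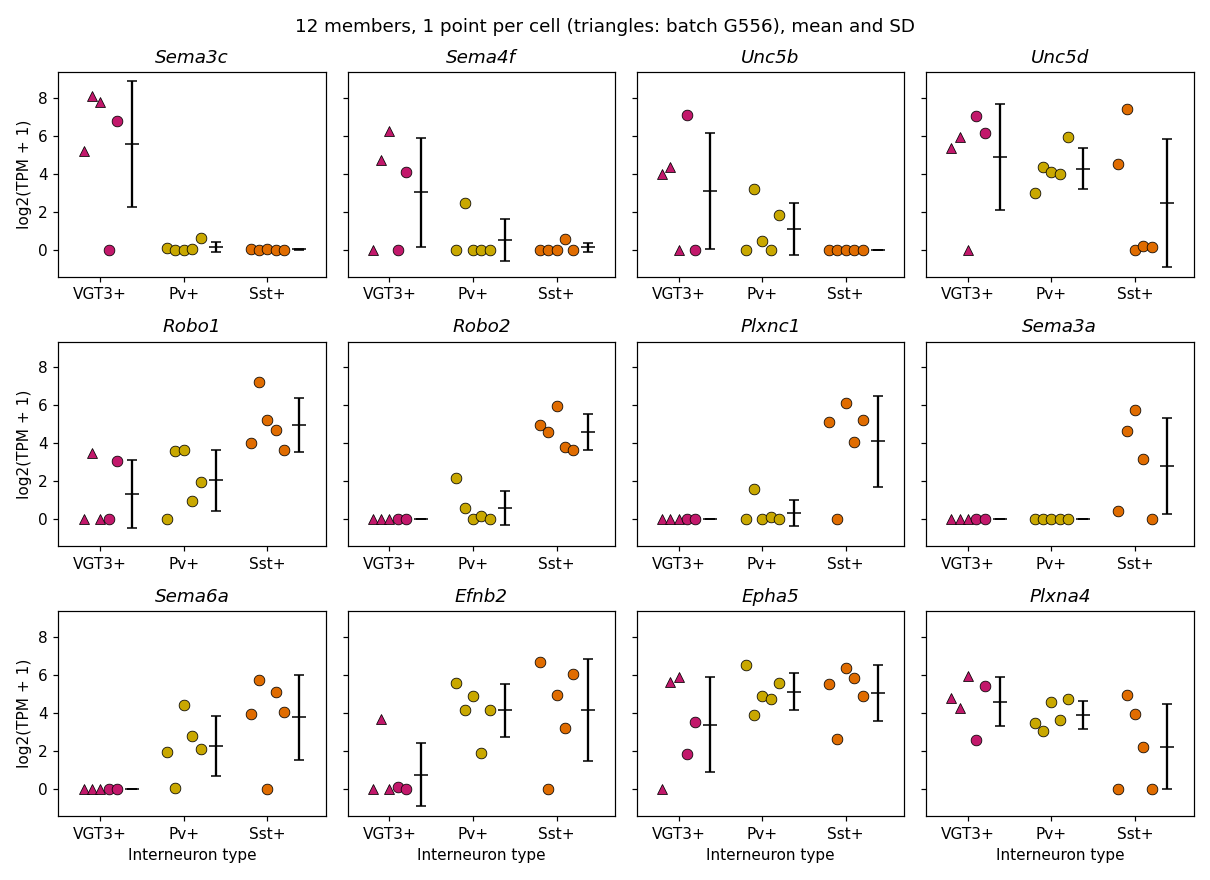
Log2(TPM + 1) of 12 members in the 3 interneuron types, with 1 point per cell (triangles, VGT3+ cells of batch G556; circles, batch G709) and the mean with its SD at the right of each group. Robo2 shows 5 Sst+ cells above all others, Sema3c 4 high VGT3+ cells and 1 at 0, and Plxna4 points of all types side by side.

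Among the semaphorin receptors, Plxna4 and Plxna2, which serve class 3 and class 6 semaphorins, were the most widespread. Plxna4 was at 26.9, 18.0, 60.8, 5.00 and 41.6 TPM in VGT3+ cells, at 10.0, 7.35, 22.6, 11.4 and 26.0 TPM in Pv+ cells and at 0.0134, 29.5, 14.7, 3.61 and 0 TPM in Sst+ cells. Pv+ and VGT3+ cells overlapped, and 2 Sst+ cells had next to none. Plxna2 was at 2.37 to 24.6 TPM in VGT3+ cells, at 0 to 14 TPM in Pv+ cells and at 0 to 64.9 TPM in Sst+ cells, with medians of 8.85, 7.29 and 14.9 TPM.

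Plxnc1, known as the receptor of Sema7a, had its highest values in Sst+ cells. It was at 33.5, 0, 68.1, 15.5 and 36.3 TPM in Sst+ cells 1 to 5, at 2.00 TPM in Pv+ cell 2 and 0.0712 TPM in Pv+ cell 4, and at 0 in the other Pv+ cells and in all VGT3+ cells. Apart from Sst+ cell 2, each Sst+ cell lay above all other cells, and the difference in mean log2(TPM + 1) was -3.76 for Pv+ minus Sst+. No cell held both Sema7a and Plxnc1 at 1 TPM or more. The neuropilin Nrp1 was at 67.2, 0.302, 7.35, 4.17 and 1.66 TPM in Pv+ cells, at 79.8, 1.19, 0, 3.1 and 0 TPM in Sst+ cells, and no higher than 1.10 TPM in VGT3+ cells. Its difference of -1.65 for VGT3+ minus Sst+ shrank to -0.54 without Sst+ cell 1.

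The receptors of Sema3c and Sema3a were not always found with them. Of the 4 VGT3+ cells with Sema3c, 2 held Nrp2 and 1 held Nrp1 at 1 TPM or more. Plxnd1, a plexin of vascular and neural semaphorin signalling, was at 0 in 14 cells and at 0.0145 TPM in VGT3+ cell 1, worth about 1.02 reads. Sema3a and Nrp1 were together in 2 of the 3 Sst+ cells that held Sema3a at 1 TPM or more. Sema6a and its receptor Plxna4 were together in 4 Pv+ and 2 Sst+ cells. The other plexins and Nrp2 reached 24.1 TPM at most, and Plxnb3 appeared in 2 Sst+ cells only, at 1.83 and 1.41 TPM.

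The antisense transcripts of Plxna4 followed no cell type closely. Plxna4os1 (chr6:32511073-32515576, plus strand) reached 15.4 TPM in the second VGT3+ cell, 175 TPM in the fourth, 54.4 and 1.39 TPM in Pv+ cells 3 and 5, and was at 0 in the other 11 cells. Plxna4os3 (chr6:32303829-32316614, plus strand) was at 95.8 TPM in VGT3+ cell 5 alone. Both lie within the span of Plxna4, which is on the minus strand (chr6:32144268-32588192). In GENCODE M21, 110 of the 403 exon bases of Plxna4os3 and 0 of the 1977 exon bases of Plxna4os1 overlap exons of Plxna4. The library kit did not mark strand, so reads of the antisense transcripts and of unspliced Plxna4 RNA cannot be told apart.

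Eph receptors added up to 123 ± 87.7 TPM per VGT3+ cell, 69.9 ± 37.9 TPM per Pv+ cell and 93.1 ± 54.9 TPM per Sst+ cell, and the types overlapped, with VGT3+ cell 3 above all other cells at 278 TPM. Epha5, a receptor of A-class ephrins, was the member with the highest Eph mean in Pv+ and Sst+ cells. It was at 91.9, 13.9, 28.9, 25.4 and 46.5 TPM in Pv+ cells, at 45, 5.08, 82.5, 56.4 and 29.1 TPM in Sst+ cells, and at 0, 47.9, 58.9, 2.54 and 10.7 TPM in VGT3+ cells. Values in VGT3+ cells overlapped with those of both other types, and the difference of -1.75 on the log2(TPM + 1) scale for VGT3+ minus Pv+ shrank to -0.91 without VGT3+ cell 1. Epha7, of the same class, was at 41.9, 2.93, 0, 90.5 and 43.3 TPM in VGT3+ cells, at 0, 8.98, 17.0, 4.10 and 7.24 TPM in Pv+ cells and at 2.91, 1.40, 51.1, 17.2 and 13.1 TPM in Sst+ cells. Here 3 VGT3+ cells and 1 Sst+ cell were the high ones.

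Epha3 was carried by single cells. VGT3+ cells 3 and 5 held 219 and 19.3 TPM, and it was at 17.7 and 11.8 TPM in Pv+ cells 1 and 4, and below 1 TPM in the other 11 cells. Without VGT3+ cell 3, the difference of 2.06 for VGT3+ minus Sst+ became 0.72. Ephb3, a receptor of B-class ephrins chosen after its values were seen, was at 9.90, 0, 8.35, 1.72 and 1.82 TPM in Pv+ cells, at 10.3 and 23.3 TPM in Sst+ cells 4 and 5 and at 0 in all VGT3+ cells. Epha2 was at or below 0.0955 TPM in all 15 cells, worth no more than 4 reads. The other 6 Eph receptors, Epha4, Epha6, Epha10, Ephb1, Ephb2 and Ephb6, ranged from 0 to 34.2 TPM.

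Of the ephrins, the B-class transmembrane ligand Efnb2 had its highest means in Pv+ and Sst+ cells. It was at 46.6, 16.7, 29.1, 2.71 and 16.7 TPM in Pv+ cells, at 100.1, 0, 29.5, 8.07 and 66.4 TPM in Sst+ cells, and at 0, 11.9, 0, 0.0673 and 0 TPM in VGT3+ cells. All Pv+ cells and 4 Sst+ cells were above 4 of the 5 VGT3+ cells. The differences in mean log2(TPM + 1) were -3.38 for VGT3+ minus Pv+ and -3.41 for VGT3+ minus Sst+, against -0.04 for Pv+ minus Sst+. The A-class ligand Efna5, anchored in the membrane by a lipid, was at 2.43, 35.4, 0, 0 and 14.9 TPM in VGT3+ cells, at 10.9 TPM in Pv+ cell 3 with the other Pv+ cells at 0, and at 0, 15.6, 4.69, 118 and 3.53 TPM in Sst+ cells. Efna5 and Epha5 were together at 1 TPM or more in 4 Sst+, 2 VGT3+ and 1 Pv+ cells. Efna3 was highest in single cells, at 15.9 TPM in Pv+ cell 5 and 24.7 TPM in Sst+ cell 2. As a family, ephrins summed to 41.2 to 126 TPM in Sst+ cells, against 3.03 to 46.6 TPM in Pv+ cells and 0 to 53.0 TPM in VGT3+ cells.

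**Figure D3:**
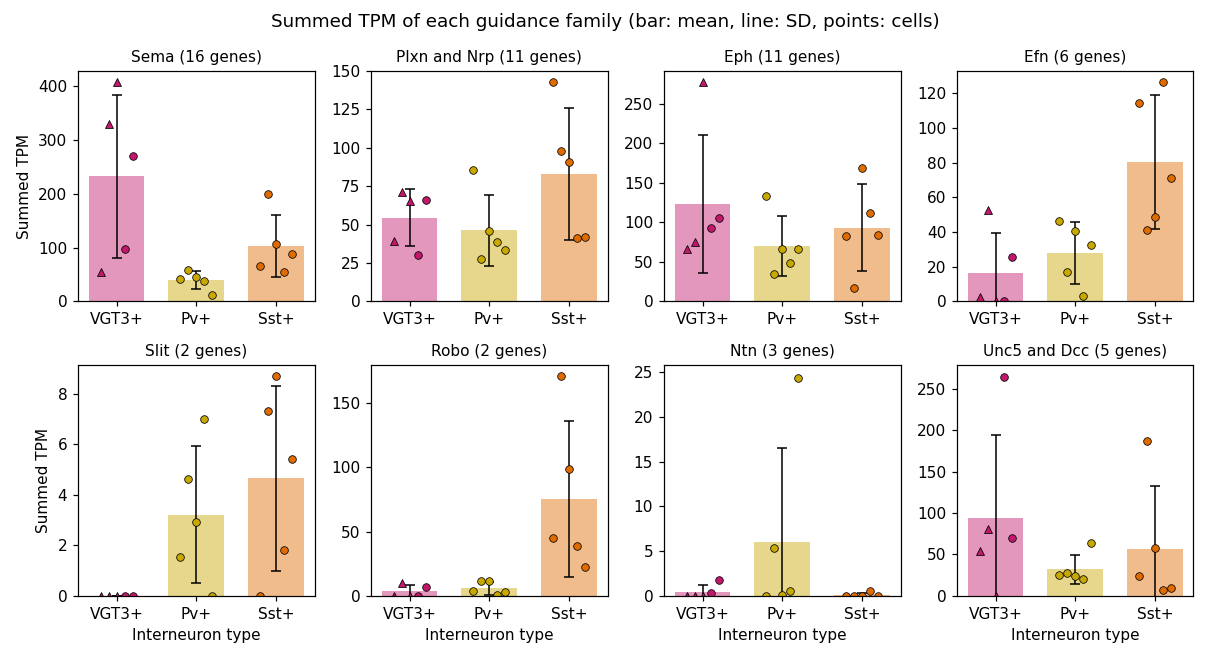
Summed TPM of 8 guidance gene families in each interneuron type (bars, mean over 5 cells; lines, SD, cut at 0; points, cells, with triangles for batch G556). The Robo panel shows 5 Sst+ cells above all others, the Sema panel 3 high VGT3+ cells, and the Eph panel overlapping types with 1 VGT3+ cell, at 278 TPM, above the rest.

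Netrins were seldom detected, and their Unc5 receptors more often. Ntn1 was at 1.77 TPM in VGT3+ cell 5 alone, Ntn3 at 0.297 TPM in VGT3+ cell 4 alone, and Dcc, the attractive netrin receptor, at 2.92 TPM in Sst+ cell 4 alone. Ntn4, a netrin of basement membranes, was at 0, 5.35, 0.109, 0.567 and 24.3 TPM in Pv+ cells, at 0.541 TPM in Sst+ cell 4 and at 0 elsewhere. No cell held Ntn1 together with Dcc or Unc5b at 1 TPM or more.

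The 3 abundant Unc5 receptors had unlike patterns. Unc5b was at 14.7, 19.5, 0, 136 and 0 TPM in VGT3+ cells, at 0, 7.99, 0.371, 0 and 2.58 TPM in Pv+ cells and at 0 in all Sst+ cells. VGT3+ and Pv+ cells overlapped, and the difference of 1.99 between them fell to 0.99 without VGT3+ cell 4. Unc5c was at 2.04, 14.4, 57.2, 3.03 and 9.77 TPM in Sst+ cells, at 17.9, 0, 7.09, 0 and 0.921 TPM in Pv+ cells, and at 1.48 TPM in VGT3+ cell 2 with the other VGT3+ cells at 0. All Sst+ cells were above all VGT3+ cells, with a difference of -3.11 for VGT3+ minus Sst+. Unc5d was at 40.1, 59.9, 0, 128 and 69.5 TPM in VGT3+ cells, at 6.75, 19.6, 16.0, 14.8 and 59.8 TPM in Pv+ cells and at 21.5, 167, 0, 0.120 and 0.0819 TPM in Sst+ cells. It was the leading Unc5 receptor of all 3 types by mean, but 3 of 5 Sst+ cells held next to none of it. Unc5a stayed at or below 5.65 TPM in every cell.

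Counted over the whole set, the share of guidance genes for which types differed by 2-fold, that is by at least 1 in mean log2(TPM + 1), was near the share of all genes, with the widest gap for Sst+ over Pv+ cells. The 3 comparisons share cells and are not independent. Of the 58 members, 8 were at least 2-fold higher in VGT3+ than in Pv+ cells (13.8% of members, against 16.2% of all 18113 genes) and 11 were higher in Pv+ cells (19.0%, against 17.4%). In VGT3+ against Sst+ cells, 10 were higher in VGT3+ cells (17.2%, against 16.4%) and 13 in Sst+ cells (22.4%, against 17.6%). In Pv+ against Sst+ cells, 8 were higher in Pv+ cells (13.8%, against 16.6%) and 13 in Sst+ cells (22.4%, against 16.6%). The median difference over the 58 was 0.06 for VGT3+ minus Pv+, -0.19 for VGT3+ minus Sst+ and -0.02 for Pv+ minus Sst+, beside 0 for all genes in each comparison. The types also differed in scale. Over 1709 genes above 0 in every cell, the median difference was 0.38 for VGT3+ minus Pv+, 0.06 for VGT3+ minus Sst+ and -0.30 for Pv+ minus Sst+. The count of members higher in VGT3+ than in Pv+ cells was 13 of 58 without VGT3+ cell 3 (all genes 19.6%). It was 18 of 58 in batch G709 alone (all genes 23.4%). The share of all genes was higher as well in both settings, and G709 alone holds only 2 VGT3+ cells. Without VGT3+ cell 4 the count was 9 of 58 (all genes 18.9%), and without VGT3+ cell 5 it was 8 of 58 (all genes 14.8%). Nothing about the members is read from these changes.

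Complete separation was rarer. All 5 Pv+ cells were above all 5 VGT3+ cells for Robo2, Sema6a and Sema7a, 3 members (5.17%, against 1.78% of all genes). The reverse held for 0 members (against 1.76%). All 5 Sst+ cells were above all 5 VGT3+ cells for Robo1, Robo2 and Unc5c, 3 members (5.17%, against 0.712%). The reverse held for 0 (against 0.464%). Between Pv+ and Sst+ cells, Robo2 was the only member with all Sst+ cells higher (1 member, 1.72%, against 2.28%). All Pv+ cells were higher for 0 members (against 1.47%). In the 3 members that separated Pv+ from VGT3+ cells, the VGT3+ cells were all listed at 0, so that 1 read in each Pv+ cell sufficed. With 1 cell fewer in a type, separation is easier for every gene. Without VGT3+ cell 4, Sema3c also separated VGT3+ cells from Pv+ (1 member, against 2.64% of all genes) and from Sst+ cells (1 member, against 0.795%). The Pv+ over VGT3+ count was 6 without Pv+ cell 1 (against 2.57%), and the Sst+ over VGT3+ count was 5 without Sst+ cell 2 (against 1.38%). Over all single cells left out, the Sst+ over Pv+ count lay between 1 and 3 (3 without Sst+ cell 5, against 2.93%).

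**Figure D4:**
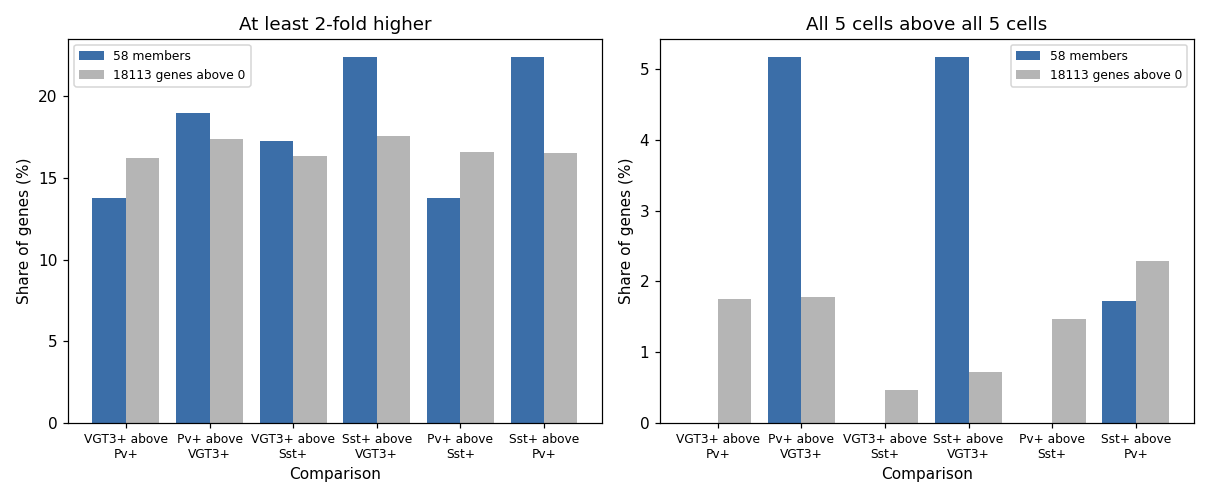
Share of the 58 members (blue) and of the 18113 genes above 0 (grey) that were at least 2-fold higher in the first type (left) or had all 5 cells above all 5 cells of the other type (right). The blue bars for 2-fold differences lie at 13.8 to 22.4% beside grey bars at 16.2 to 17.6%.

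Partners of the guidance receptors were looked at through 2 further lists. Of 20 co-receptors and other cues, 17 were above 0, and 5 were at least 2-fold higher in VGT3+ than in Pv+ cells with 3 lower (all genes 16.2% and 17.4%). In VGT3+ against Sst+ cells, 3 were higher and 5 lower (16.4% and 17.6%), and in Pv+ against Sst+ cells 4 were higher and 5 lower (16.6% each way). These counts are small and nothing is read from them. Chl1, an L1-family adhesion molecule that can join semaphorin receptor complexes, was at 601, 614, 159, 290 and 157 TPM in Sst+ cells, and every Sst+ cell was above every Pv+ cell (19.3 to 147 TPM), with VGT3+ cells at 40.1 to 454 TPM. The next genes of this list by mean were Nrcam (49.0 TPM over the 15 cells), Flrt2 (34.2 TPM) and Ptprs (27.6 TPM).

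Cytoskeletal effectors were more abundant than the receptors. Of 26 listed, 24 were above 0, with Cdc42 (mean 1173 TPM), Cfl1 (295 TPM), Cdk5 (161 TPM) and Dpysl2 (94.2 TPM) at the top. Here 7 were at least 2-fold higher and 2 lower in VGT3+ than in Pv+ cells (all genes 16.2% and 17.4%), 9 were higher and 2 lower in Sst+ than in Pv+ cells (16.6% each way), and 4 were higher and 4 lower in VGT3+ than in Sst+ cells (16.4% and 17.6%). Both comparisons with Pv+ cells include the shift in scale given above. After division by size factors, which removes it, 7 were higher and 3 lower in VGT3+ than in Pv+ cells (all genes 12.8% and 20.5%), and 7 were higher and 3 lower in Sst+ than in Pv+ cells (13.4% and 18.9%). Crmp1, a collapsin response mediator that relays semaphorin 3A signals, was at 119, 111, 339, 321 and 239 TPM in VGT3+ cells, at 0.184 to 19.0 TPM in Pv+ cells and at 5.95 to 60.6 TPM in Sst+ cells. All VGT3+ cells lay above all other cells. Dpysl3, of the same family, was at 39.2 to 155 TPM in Sst+ cells and at 0.0208 to 38 TPM in Pv+ cells, and the kinase Pak1 at 86.4 to 236 TPM and 3.13 to 76.7 TPM, so the Sst+ cells lay above the Pv+ cells for both. VGT3+ cells overlapped with both types for these genes.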

How the data were processed

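Reads of 15 single-cell SMART-Seq HT libraries (Nextera XT, read pairs, no strand mark, no molecular identifiers) were de-multiplexed by the authors with bcl2fastq, aligned to GRCm38 with HISAT2 2.1.0 (--no-mixed, --no-discordant), counted per Ensembl gene with HTSeq and converted to TPM in R. The deposited values are TPM for 43629 genes, each cell adding up to 1000000, with no scaling between cells or batches. All columns were mapped to a cell by label. From them, means, SDs and differences of log2(TPM + 1) were computed in Python 3.11.15 (pandas 2.3.3, numpy 2.4.6, plots by matplotlib 3.10.9). The pseudocount of 1 understates changes of low genes.

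No animal is named for a cell, so the tests over cells that the study used were not run. Calls were a difference of at least 1, or no overlap of cells. The members and lists were chosen with earlier results of these data known. Named with values were the 3 members of highest mean per family, members without overlap or at 0 in all 5 cells of 1 type that averaged 10 TPM or more in the other, and, of each further list, the 4 genes of highest mean and those past both rules that averaged 50 TPM or more. Any other gene named was picked with its values in view. The result of 1 further list is not reported here. The depth was estimated from TPM and GENCODE M21 exon lengths. Of values under 50 estimated reads, 71.7 to 76.2% lay within 0.01 of a whole number, so the depth is approximate, and limits at 3 reads cover counting error only. Promoter windows were matched for 49 of 58 members by symbol. The code that computes differences was checked on simulated data with set changes.

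The alternatives were batch G709 alone, each cell left out in turn, median-of-ratios size factors, TPM rescaled after removing the 10 most abundant genes and those of the mitochondrial genome, a pseudocount of 0.1, only genes that averaged 1 TPM or more, and medians. Leaving out VGT3+ cells 3 and 4 together and using size factors for the further lists were added after the values were seen.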

Additional observations from a re-analysis of the deposited data

Results flagged for a closer look

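Within each type, a cell was singled out where its gap to the nearest other cell was over 0.71 of the range of the 5 cells, on log2(TPM + 1) for the named members and on summed TPM for the families. Of 91 groups tested, 25 were flagged (27.5%), where chance in normally distributed values gives about 1 in 20, and in 11 of the 25 the other 4 cells were at 0.

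Among VGT3+ cells, cell 5 stood out for Plxna4os3 (95.8 TPM), Ntn1 (1.77 TPM) and the netrin sum (1.77 TPM), cell 4 for Ntn3 (0.297 TPM), and cell 2 for Efnb2 (11.9 TPM) and Unc5c (1.48 TPM). VGT3+ cell 3, which had the fewest genes above 0, stood out for the Eph sum (278 TPM, with 65.7 to 105 TPM in the others), for Nrp1 (1.10 TPM) and for Unc5d at the low end, at 0 against 40.1 to 128 TPM in the other 4.

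Among Pv+ cells, cell 5 stood out for Sema3a (0.0202 TPM), Sema3c (0.548 TPM), Efna3 (15.9 TPM), the netrin sum (24.3 TPM) and the sum of Unc5 receptors and Dcc (63.4 TPM). Pv+ cell 3 stood out for Plxna4os1 and with it the antisense sum (54.4 TPM) and for Efna5 (10.9 TPM), Pv+ cell 2 for Plxnc1 (2.00 TPM) and Slit3 (4.61 TPM), and Pv+ cell 1 for Robo2 (3.44 TPM). Among Sst+ cells, cell 2 stood out for Efna3 (24.7 TPM) and the sum of Unc5 receptors and Dcc (187 TPM), cell 4 for Ntn4 and the netrin sum (0.541 TPM), and cell 5 for Slit3 (5.42 TPM).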

How the results depend on the processing

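No paired analysis was possible because the replicate number only names a cell and no test was run. No direction of a called difference of a named member reversed under the alternatives run. A fall to 0 did not count as a reversal. The Plxna4os3 differences, 1.32 for VGT3+ minus Pv+ and for VGT3+ minus Sst+, were both 0 without VGT3+ cell 5. Of the 48 called differences, 28 stayed at 2-fold or more whichever cell was left out and 20 did not. With a pseudocount of 0.1, the members at least 2-fold higher numbered 15 for Pv+ over Sst+, 18 for Pv+ over VGT3+, 20 for Sst+ over Pv+, 24 for Sst+ over VGT3+ and 15 for VGT3+ over Pv+, beside 29.7, 31.4, 23.2, 27.1 and 22.9% of all genes. In batch G709 alone, VGT3+ over Pv+ numbered 18 (all genes 23.4%), and members without overlap numbered 6 for Pv+ over VGT3+ (5.60%), 3 for VGT3+ over Pv+ (9.64%) and 1 for VGT3+ over Sst+ (5.95%). Without VGT3+ cells 3 and 4, VGT3+ over Pv+ numbered 17 (23.7%), and 2 members each separated VGT3+ from Pv+ (5.58%) and from Sst+ cells (2.00%). With 1 cell left out at a time, members at least 2-fold higher in VGT3+ than in Pv+ cells numbered 8 to 13 (all genes 14.8 to 19.6%). Those without overlap numbered 0 to 1 for Pv+ over Sst+ (all genes 1.77 to 2.34%; 1 without Sst+ cell 2), 3 to 6 for Pv+ over VGT3+ (1.98 to 2.68%), 1 to 3 for Sst+ over Pv+ (2.44 to 3.4%), 3 to 5 for Sst+ over VGT3+ (0.762 to 1.38%), and 0 to 1 for VGT3+ over Pv+ (1.89 to 3.01%) and over Sst+ (0.580 to 0.983%). The Plxna4 antisense sum in VGT3+ cells was 135 TPM in G709 alone, and the semaphorin sum in Pv+ cells 59.1 TPM after rescaling. Rescaling also raised the semaphorin sum to 301 TPM in VGT3+ cells and 131 TPM in Sst+ cells, and the order of the types stayed the same. With size factors, co-receptors and cues higher in Pv+ than in VGT3+ cells numbered 5 (all genes 20.5%), against 3. On that scale, plexins and neuropilins summed to 42.9 TPM per VGT3+ cell and 49.0 TPM per Pv+ cell, the opposite order to 54.5 and 46.3 TPM. With medians, Unc5 receptors and Dcc were at 24.7 TPM per Pv+ cell and 23.6 TPM per Sst+ cell, against means of 31.9 and 57.1 TPM. The causes were not tested.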
